A study of Mus musculus with 6 samples.

Results

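The transcription factors that mark the lineage of cardiac fibroblasts were examined in cultured fibroblasts with and without TGFβ. The set holds 10 genes chosen by name, *Tcf21*, *Tbx20*, *Tbx5*, *Gata4*, *Gata6*, *Hand2*, *Meox1*, *Meox2*, *Scx* and *Wt1*, of 25140 genes in the table. RNA-seq of polyadenylated mRNA was made from primary cardiac fibroblasts of the adult heart of C57BL/6 mice at passage 1, with no transgene named. Cells were grown in medium with 25 mM glucose and 10% serum to 80% confluence, held in 1% serum for 16 h, and then given vehicle (3 libraries) or 10 ng/mL TGFβ (3 libraries) for 24 h. The study set out to follow transcription as fibroblasts turn into myofibroblasts. Its methods and the sample labels call the cells cardiac fibroblasts, while its results section speaks of mouse embryonic fibroblasts, so the level of each factor with vehicle is given beside its change. The methods call the libraries biological replicates and do not say which animals or cultures they came from.

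Cardiac fibroblasts arise mostly from the epicardium, the mesothelial sheet that covers the heart, by a transition of epicardial cells into migrating mesenchyme. Tcf21, a basic helix-loop-helix (bHLH) protein, is needed for this fate and is kept in resident fibroblasts of the adult heart, and Wt1, a zinc-finger protein, marks the epicardium itself. Gata4, Gata6, Tbx5, Tbx20 and Hand2 are best known from the development of heart muscle and are also expressed in fibroblasts of the heart. Meox1 and Meox2 are homeobox proteins of the early mesoderm. Scx (scleraxis) is the bHLH factor of tendons and heart valves and binds collagen gene promoters.

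The RefSeq promoters used here (GRCm38.p6) matched 4 of the 10 factors, and these are printed. All 4 fell with TGFβ. No promoter of a factor that rose or did not pass the threshold was at hand, so their letters cannot be read as a trait of factors that fell. Each sequence runs 5′ to 3′ on the strand of its gene, from 250 bases before the transcription start to 50 bases after it. Capitals mark matches, on either strand, to GGGCGG (the GC box, read as CCGCCC on the other strand), AGATAA (the GATA motif, TTATCT on the other strand) and TATAAA (the TATA box, TTTATA on the other strand). The *Tcf21* promoter lies at chr10:22820094-22820393 on the minus strand, that of *Tbx20* at chr9:24774254-24774553 on the minus strand, that of *Hand2* at chr8:57320733-57321032 on the plus strand and that of *Meox2* at chr12:37108290-37108589 on the plus strand.
Tcf21: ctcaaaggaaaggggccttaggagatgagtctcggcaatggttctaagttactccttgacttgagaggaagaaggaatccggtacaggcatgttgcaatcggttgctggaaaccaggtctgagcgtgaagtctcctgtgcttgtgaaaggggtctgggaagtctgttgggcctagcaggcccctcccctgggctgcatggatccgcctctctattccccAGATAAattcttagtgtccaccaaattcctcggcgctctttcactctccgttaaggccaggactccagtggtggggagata
Tbx20: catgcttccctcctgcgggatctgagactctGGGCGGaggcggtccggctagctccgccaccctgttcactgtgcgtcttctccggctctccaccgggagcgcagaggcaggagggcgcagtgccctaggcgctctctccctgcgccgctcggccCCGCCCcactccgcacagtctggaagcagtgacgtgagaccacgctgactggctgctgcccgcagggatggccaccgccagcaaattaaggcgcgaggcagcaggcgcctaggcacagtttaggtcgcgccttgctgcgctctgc
Hand2: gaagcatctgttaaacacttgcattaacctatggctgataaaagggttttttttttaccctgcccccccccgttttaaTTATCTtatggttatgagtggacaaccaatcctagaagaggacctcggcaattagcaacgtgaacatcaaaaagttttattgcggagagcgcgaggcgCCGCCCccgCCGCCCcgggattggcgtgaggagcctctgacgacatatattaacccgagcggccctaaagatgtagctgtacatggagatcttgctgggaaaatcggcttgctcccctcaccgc
Meox2: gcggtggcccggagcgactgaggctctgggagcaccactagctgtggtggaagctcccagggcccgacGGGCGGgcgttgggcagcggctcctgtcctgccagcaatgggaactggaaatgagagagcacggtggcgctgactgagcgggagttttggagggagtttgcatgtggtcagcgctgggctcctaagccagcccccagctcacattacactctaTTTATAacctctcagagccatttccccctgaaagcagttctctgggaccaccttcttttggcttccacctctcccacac

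AGATAA, the letters that GATA factors bind, stood 31 to 26 bases before the RefSeq start of *Tcf21*. The gene model used for levels starts *Tcf21* further upstream, at 22820174, so by that model these letters open the gene and do not precede it. On the other strand AGATAA stood 172 to 167 bases before the start of *Hand2*. AGATAA is held by 11.2% of all 32851 promoters. GGGCGG occurred in 3 of the 4 promoters, at 2 places each in *Tbx20* and *Hand2* and once in *Meox2*, against 35.7% of all promoters. TATAAA was found only in *Meox2* among the 4, on the other strand 29 to 24 bases before the start, and in 13.6% of all promoters. CAGACA (searched for SMAD, found in 21.0% of all promoters), TGANTCA (for AP-1, 7.81%), GGAATG (for TEAD, 14.7%) and AGGTGT (for T-box factors, 13.7%) were in none of these 4 windows. Only these exact letters were searched. Shorter or variant sites of the same factors were not, so these windows may still hold such sites. The *Tbx20* promoter was the richest in CG dinucleotides, with 26 of them and 68.3% G and C, and *Tcf21* had 8 and 53.3%, close to the medians of 7 and 52.7% over all promoters. *Hand2* had 17 and 50.3%, and *Meox2* 12 and 60.7%.

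The libraries held 27851677 to 31072338 counts and are named below by their totals, since the columns carry no replicate number. Per-library counts are given in the order 31072338, 29296570 and 29331999 for vehicle and 27851677, 28894151 and 28641986 for TGFβ. Fibroblast markers were high in every library (*Pdgfra* 665 ± 55.3 CPM with vehicle, SD, n = 3), where CPM, the level used throughout, scales the counts of each library by its TMM-adjusted total. Of the cardiomyocyte markers, *Myh6* had 2 to 16 counts and *Ttn* 1 to 7, while *Tnnt2* (cardiac troponin T) had 744 to 1854 and made up most of the summed level of that list, 38.8 to 60.4 CPM with vehicle and 27.6 to 40.7 CPM with TGFβ. Endothelial markers were all detected, and their summed CPM lay between 999 and 1260 (vehicle) and between 1035 and 1227 (TGFβ), with the highest sums in the vehicle library of 29331999 counts and the TGFβ library of 28641986. *Eng* alone gave 512 to 533 CPM of these sums with vehicle and 592 to 619 with TGFβ. It was the only endothelial marker of 10 to pass the threshold (log2 fold change 0.23; edgeR adjusted p = 0.00443), while the median log2 fold change of the list was -0.22. Leukocyte markers summed to 241 to 344 CPM with vehicle and 209 to 312 CPM with TGFβ, of which *Lyz2* gave 201 to 290 and 172 to 258 CPM. Markers of the epicardium and mesothelium summed to 260 to 298 CPM with vehicle and 175 to 213 CPM with TGFβ. *Aldh1a2* alone gave 205 to 239 CPM of these sums with vehicle and 159 to 170 with TGFβ. It was the only one of 8 tested to pass the threshold (log2 fold change -0.46; edgeR adjusted p = 0.00113). *Upk3b*, *Upk1b*, *Lrrn4* and *Bnc1* lay between 0.47 and 53.4 CPM over the 6 libraries. The vehicle library of 31072338 counts and the TGFβ library of 27851677 counts stood highest in these 4 markers. Of the 6 markers of activated fibroblasts, 5 were higher with TGFβ, among them *Acta2* (log2 fold change 1.03) and *Postn* (1.55). Over all genes, 5828 of 14334 tested passed an adjusted p of 0.05 in edgeR's quasi-likelihood test (40.7%), 2944 higher (20.5%) and 2884 lower (20.1%), and the median log2 fold change was -0.0013.

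All 10 factors passed the filter on low counts. Compared per kilobase (kb) of exon, so that genes of unlike length can be set side by side, *Tcf21* was the most abundant with vehicle at 129 ± 1.51 CPM per kb (SD, n = 3) and ranked 290 of the 25086 genes with a length. *Tbx20* followed at 50.4 ± 6.07 CPM per kb (rank 873), *Gata4* at 27.3 ± 2.76 (rank 1661), *Hand2* at 17.9 ± 1.12 (rank 2506) and *Gata6* at 12.5 ± 1.44 (rank 3477). These 5 therefore stood among the top 13.9% of genes, and no library of one overlapped the next in this order. The homeobox pair was lower, with *Meox1* at 5.28 ± 0.79 CPM per kb and *Meox2* at 3.60 ± 0.65. *Scx* (1.07 ± 0.56 CPM per kb), *Tbx5* (0.97 ± 0.33) and *Wt1* (0.57 ± 0.48) closed the order, and these neighbours overlapped between libraries. With the longest annotated transcript as the length in place of all exons, 5 of the 10 kept their place.

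**Figure D1:**
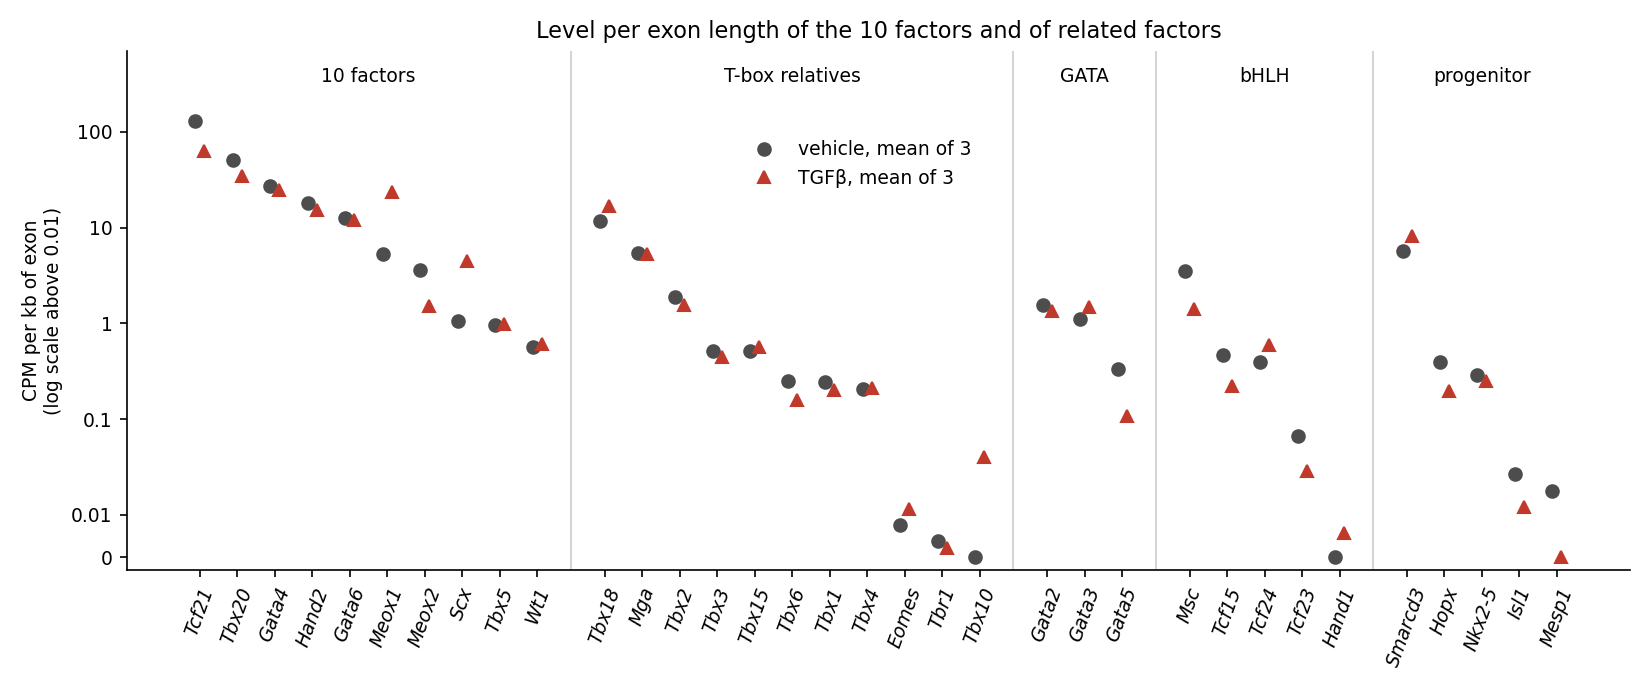
Level of each factor and of related factors per kb of exon, in CPM per kb on an axis that is logarithmic above 0.01, as the mean of 3 vehicle libraries (circles) and 3 TGFβ libraries (triangles). *Tcf21* and *Tbx20* lie at the top with 129 and 50.4 CPM per kb with vehicle, *Meox1* moves up from 5.28 to 23.5, and *Tbx18* is the highest of the T-box relatives.

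The same order was then read with TGFβ. *Tcf21* (62.5 ± 0.87 CPM per kb) and *Tbx20* (34.9 ± 1.68) kept the first places and *Gata4* the third (24.7 ± 1.55). *Meox1* moved from the sixth to the fourth place at 23.5 ± 6.06 CPM per kb, with libraries that overlapped those of *Gata4*. *Scx* came to stand above *Meox2* (4.43 ± 0.65 against 1.50 ± 0.16 CPM per kb). *Meox1* went from rank 6464 to 1988 among all genes and *Scx* from 10925 to 6980, while *Tcf21* went from 290 to 707 and *Meox2* from 7750 to 10021.

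Related factors put these levels in context. Of 15 T-box relatives 11 were listed, and the highest per kb was *Tbx18*, a factor of the epicardium and of fibroblast precursors, at 11.6 CPM per kb with vehicle, below *Tbx20* and above *Tbx5*. *Gata2*, the highest of the other GATA factors, reached 1.56 CPM per kb, below *Gata4* and *Gata6*. *Hand1*, the sister gene of *Hand2*, had 0 counts in 5 libraries and 1 count in the TGFβ library of 28641986. Among factors of cardiac progenitors outside the set, *Nkx2-5*, a factor of heart muscle, had 3 to 23 counts and *Isl1*, a factor of the second heart field, 0 to 7. *Smarcd3*, a subunit of the chromatin remodelling complex of heart progenitors, was the highest of that list at 5.69 CPM per kb. The Hox genes, which record position along the body axis, were low: the summed level of Hox1 to Hox5 was 6.61 to 20.4 CPM with vehicle, that of Hox6 to Hox8 4.48 to 6.10 CPM and that of Hox9 to Hox13 2.31 to 2.83 CPM. *Hoxd8* was the highest Hox gene per kb with vehicle (1.72 CPM per kb).

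Of the 10 factors, 6 changed: *Meox1* and *Scx* rose, and *Tcf21*, *Tbx20*, *Hand2* and *Meox2* fell. *Gata4*, *Gata6*, *Tbx5* and *Wt1* did not pass the threshold. The share called, 6 of 10, stands beside 40.7% of all tested genes, with 2 of 10 higher against 20.5% and 4 of 10 lower against 20.1%. The same 6 factors had vehicle and TGFβ libraries that did not overlap, beside 53.3% of all tested genes (27.2% higher, 26.1% lower). For each of them the two-sided exact permutation test gave p = 0.1, the smallest that 3 libraries against 3 allow. The median log2 fold change of the 10 was -0.10. In bulk RNA, fewer cells of a type and less RNA per cell cannot be told apart.

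**Figure D2:**
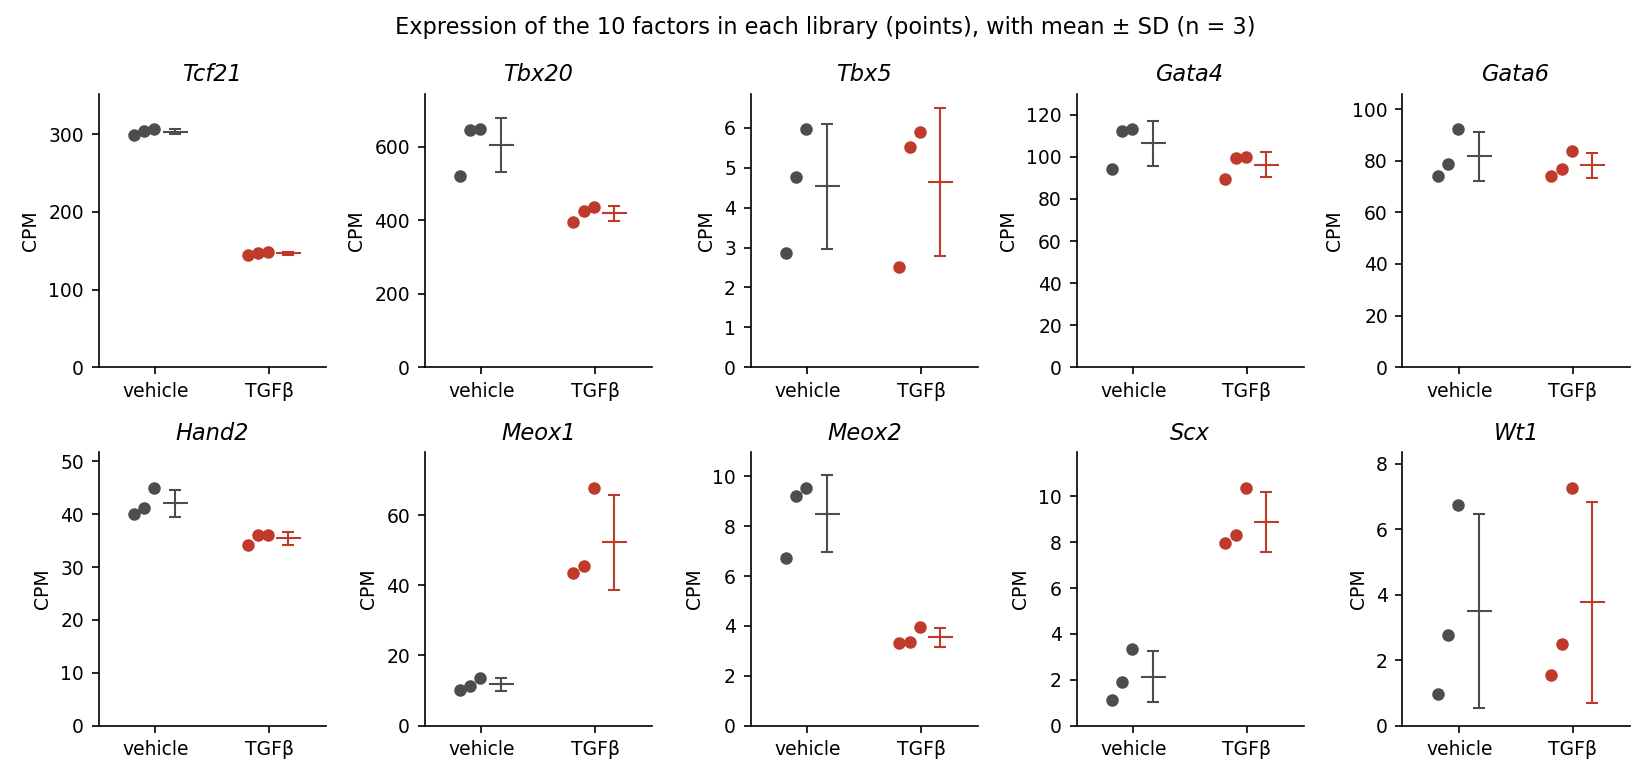
Level of each of the 10 factors in CPM (vertical axes start at 0) in the 3 vehicle (grey) and 3 TGFβ (red) libraries, with the mean and SD beside the points. *Tcf21*, *Tbx20*, *Hand2* and *Meox2* are lower and *Meox1* and *Scx* higher in every TGFβ library, while the points of *Gata4*, *Gata6*, *Tbx5* and *Wt1* overlap.

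*Tcf21* (ENSMUSG00000045680, chromosome 10, 22817281 to 22820174, minus strand, GRCm38), the factor most closely tied to the resident cardiac fibroblast, had 9671, 9094 and 8937 counts with vehicle and 4011, 4045 and 4246 with TGFβ. Every TGFβ library was far below every vehicle library, and the lowest vehicle CPM was 2.01 times the highest TGFβ CPM. Its level went from 303 ± 3.54 CPM (SD, n = 3) to 147 ± 2.05 CPM, which is 48.4% of vehicle, with a log2 fold change of -1.05 (standard error 0.04; edgeR adjusted p = 3.88e-06). *Tcf21* was also one of the steadiest genes within a group. The coefficient of variation over libraries was 1.17% with vehicle and 1.39% with TGFβ, close to the 1.04% and 1.56% expected from counting alone, and only 0.998% of tested genes had a smaller within-group SD on the log2 scale. Among all tested genes, 4.36% passed the threshold and fell by at least 1 on the log2 scale. An antisense gene, *Gm10824*, spans *Tcf21* without sharing exon bases and had 104 to 126 counts with vehicle and 124 to 181 with TGFβ. It passed the threshold as higher (log2 fold change 0.63; edgeR adjusted p = 0.0183), opposite in sign to *Tcf21*.

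*Tbx20* (ENSMUSG00000031965, chromosome 9, 24718138 to 24774303, minus strand), a T-box factor of the developing heart and its valves, had 20623, 19143 and 15532 counts with vehicle and 11620, 12152 and 11298 with TGFβ. The vehicle library of 29331999 counts was the lowest of its group and still above all TGFβ libraries. The level fell from 605 ± 72.8 CPM to 419 ± 20.1 CPM, or 69.2% of vehicle (log2 fold change -0.53, standard error 0.09; edgeR adjusted p = 0.00251).

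*Hand2* (ENSMUSG00000038193, chromosome 8, 57320983 to 57324633, plus strand), a bHLH factor of the ventricles, neural crest and epicardium, had the smallest change among the 6. Its counts were 1433, 1187 and 1226 with vehicle and 989, 1007 and 972 with TGFβ, so that all TGFβ libraries lay below the vehicle libraries. The level went from 42.1 ± 2.64 CPM to 35.4 ± 1.16 CPM, or 84.2% of vehicle (log2 fold change -0.25, standard error 0.06; edgeR adjusted p = 0.0101). The antisense gene *Hand2os1* shares 461 bases with its exons, 19.6% of them, and had 83 to 133 counts with vehicle and 59 to 88 with TGFβ. Whether the authors' counting used strand is not stated. Matched on either strand, 13.7% of the 75-base windows of the longest *Hand2* transcript also occur in transcripts of other genes. Windows in the bases shared with *Hand2os1* can be among them, so both shares may describe the same overlap. The value of *Hand2* is uncertain to that extent. No window of the longest transcripts of the other 9 factors is shared. Exon bases outside the longest transcript were not searched. That transcript holds 3784 of 6508 exon bases of *Gata6* and 3090 of 6195 of *Wt1*.

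The Meox genes went opposite ways. *Meox1* (ENSMUSG00000001493, chromosome 11, 101877510 to 101894374, minus strand) had 326, 337 and 409 counts with vehicle and 1191, 1269 and 1933 with TGFβ. All TGFβ libraries were above all vehicle libraries, and the TGFβ library of 28641986 counts was the highest. The level rose from 11.8 ± 1.77 CPM to 52.3 ± 13.5 CPM, 4.44-fold (95% interval 3.27 to 6.03), with a log2 fold change of 2.15 (standard error 0.19; edgeR adjusted p = 0.000122). Over all tested genes, 2.41% passed the threshold with a rise of at least 1 on the log2 scale. The antisense gene *Gm11551* lies within *Meox1*, shares no exon bases with it and had 0 to 3 counts.

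*Meox2* (ENSMUSG00000036144, chromosome 12, 37108540 to 37179534, plus strand) had 214, 283 and 275 counts with vehicle and 92, 111 and 94 with TGFβ. No library of the groups overlapped. The level fell from 8.50 ± 1.54 CPM to 3.55 ± 0.37 CPM, or 41.8% of vehicle (log2 fold change -1.26, standard error 0.16; edgeR adjusted p = 0.000677), the lowest remaining share among the 10 factors. *Gm48617*, annotated on the same strand across part of *Meox2* with no shared exon bases, was not analysed here.

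*Scx* (ENSMUSG00000034161, chromosome 15, 76457452 to 76459458, plus strand) was low with vehicle, with 107, 57 and 34 counts, and had 284, 223 and 237 counts with TGFβ. The vehicle libraries differed 2.95-fold among themselves, yet the highest stayed below every TGFβ library. The level rose from 2.14 ± 1.13 CPM to 8.89 ± 1.30 CPM, 4.12-fold (95% interval 2.49 to 6.81), with a log2 fold change of 2.04 (standard error 0.31; edgeR adjusted p = 0.00165). *Scx* lies inside the span of *Bop1*, a ribosome assembly gene on the other strand, with which it shares no exon bases. *Bop1* went from 42.7 to 53.8 CPM (log2 fold change 0.34; edgeR adjusted p = 0.000708), and how far reads of its introns were counted on *Scx* was not tested.

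**Figure D3:**
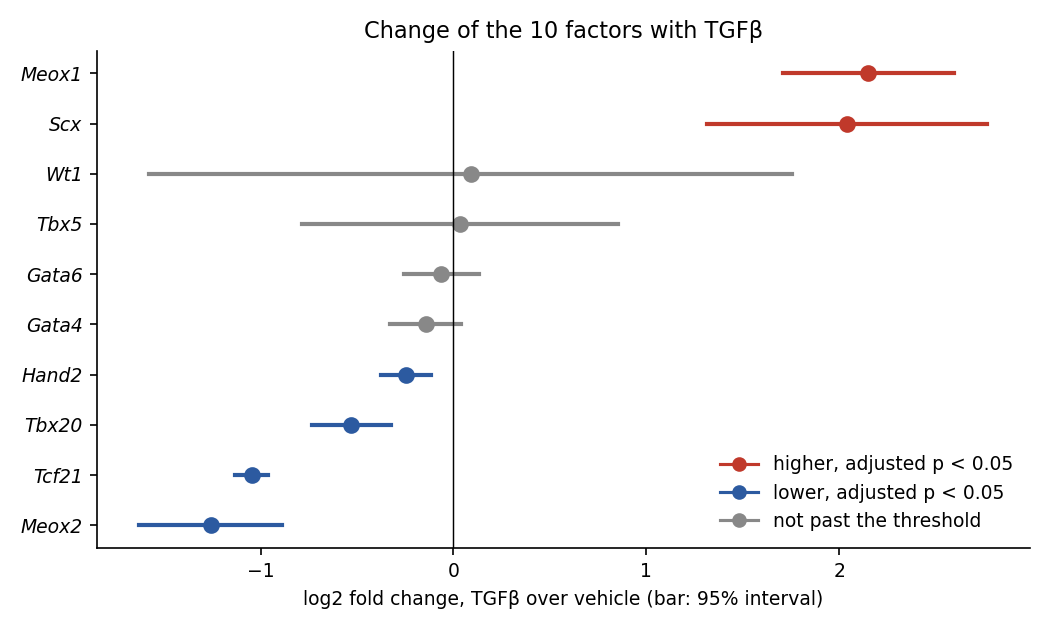
Change of each factor with TGFβ relative to vehicle, as log2 fold change (point) with its 95% interval (bar), in red or blue where edgeR's adjusted p is under 0.05. *Meox1* (2.15) and *Scx* (2.04) lie right of 0, *Meox2* (-1.26), *Tcf21* (-1.05), *Tbx20* (-0.53) and *Hand2* (-0.25) left of it, and the bars of the other 4 cross 0, that of *Wt1* being the widest.

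The GATA pair did not pass the threshold. *Gata4* (ENSMUSG00000021944, chromosome 14, 63198922 to 63271692, minus strand) had 3571, 3357 and 2806 counts with vehicle and 2725, 2794 and 2548 with TGFβ, and the vehicle library of 29331999 counts lay within the range of the TGFβ libraries in CPM. The log2 fold change was -0.14 (95% interval -0.33 to 0.04; edgeR adjusted p = 0.19), which is 0.80-fold to 1.03-fold. Without that vehicle library it was -0.23 (edgeR adjusted p = 0.0252). With an endothelial covariate, chosen after the data were seen, it was -0.24 (edgeR adjusted p = 0.00306). That covariate was the mean log2 level of *Pecam1*, *Cdh5*, *Kdr*, *Tie1*, *Emcn* and *Egfl7*. *Tek*, *Flt1*, *Eng* and *Vwf* of the same list were not in it. The covariate was highest in the libraries of 29331999 and 28641986 counts. *Flt1* and *Vwf* were highest there too, while *Tek* was lowest in both and *Eng* lowest in that vehicle library. How far the choice of markers moved the *Gata4* value was not tested. *Gata6* (ENSMUSG00000005836, chromosome 18, 11052064 to 11085635, plus strand) had 2934, 2198 and 2348 counts with vehicle and 2289, 2072 and 2193 with TGFβ. Its log2 fold change was -0.06 (95% interval -0.26 to 0.13; edgeR adjusted p = 0.594), and the groups overlapped. The gene *1010001N08Rik* on the other strand shares 93 bases, or 1.43%, of the *Gata6* exons and had 27 to 52 counts.

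*Tbx5* (ENSMUSG00000018263, chromosome 5, 119832668 to 119885219, plus strand), a factor of the atria, the left ventricle and the forelimb, varied more within the groups than between them. Its counts were 152, 85 and 178 with vehicle and 151, 70 and 168 with TGFβ. One library in each group was thus lower than the others. Mean CPM was 4.54 ± 1.56 (vehicle) and 4.64 ± 1.86 (TGFβ) (log2 fold change 0.03, 95% interval -0.79 to 0.85; edgeR adjusted p = 0.954). The interval leaves room for changes from 0.58-fold to 1.80-fold.

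*Wt1* (ENSMUSG00000016458, chromosome 2, 105126529 to 105173616, plus strand) was the most variable of the 10. Its counts were 215, 29 and 83 with vehicle and 199, 43 and 71 with TGFβ. The highest CPM was 6.91 times the lowest among vehicle libraries and 4.72 times among TGFβ libraries, and 99.9% of tested genes had a smaller within-group SD on the log2 scale. Mean CPM was 3.51 ± 2.96 (vehicle) and 3.77 ± 3.07 (TGFβ), and the log2 fold change of 0.09 had a 95% interval of -1.58 to 1.76 (edgeR adjusted p = 0.935), which allows changes from 0.34-fold to 3.38-fold.

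The libraries that were high in *Wt1* were also high in most of the mesothelial markers tested. *Upk1b*, a uroplakin of the mesothelium, had 257, 14 and 65 counts with vehicle and 192, 18 and 35 with TGFβ, the order seen for *Wt1* in both groups. *Lrrn4* (685, 49 and 174, then 202, 36 and 58) and *Bnc1* (228, 15 and 50, then 115, 23 and 37) had that order too. Of the 8 mesothelial markers tested, 7 ordered the libraries of each group in CPM as *Wt1* did, beside 2.85% of all tested genes. The exception was *Aldh1a2*, the most abundant of the list, at 205, 235 and 239 CPM with vehicle and 165, 159 and 170 with TGFβ. With vehicle it was lowest in the library of 31072338 counts, where *Wt1* was highest. With a spread of at least 2-fold in each group as well, 5 of 8 did, beside 0.272% of all tested genes. *Gata6* was the only other member of the set with the order of *Wt1*. Outside the set and the mesothelial markers, *Tbx6*, *Tnnt2*, *Gata5*, *Des* and *Hoxa5* had that order too, the last 3 with the 2-fold spread as well. With the mean level of *Upk3b*, *Upk1b*, *Lrrn4* and *Bnc1* as a covariate, chosen after the data were seen, the log2 fold change of *Wt1* was 0.81 (edgeR adjusted p = 0.0105). With the endothelial covariate described for *Gata4* it was -0.35 (edgeR adjusted p = 0.711). The mesothelial covariate, a mean of log2 levels measured after treatment, itself differed between the groups. It was 4.06, 1.37 and 2.44 with vehicle and 3.19, 1.26 and 1.67 with TGFβ. How far that difference moved the value of 0.81 was not tested. The part of the mesothelial signal in the level of *Wt1* was not tested either.

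**Figure D4:**
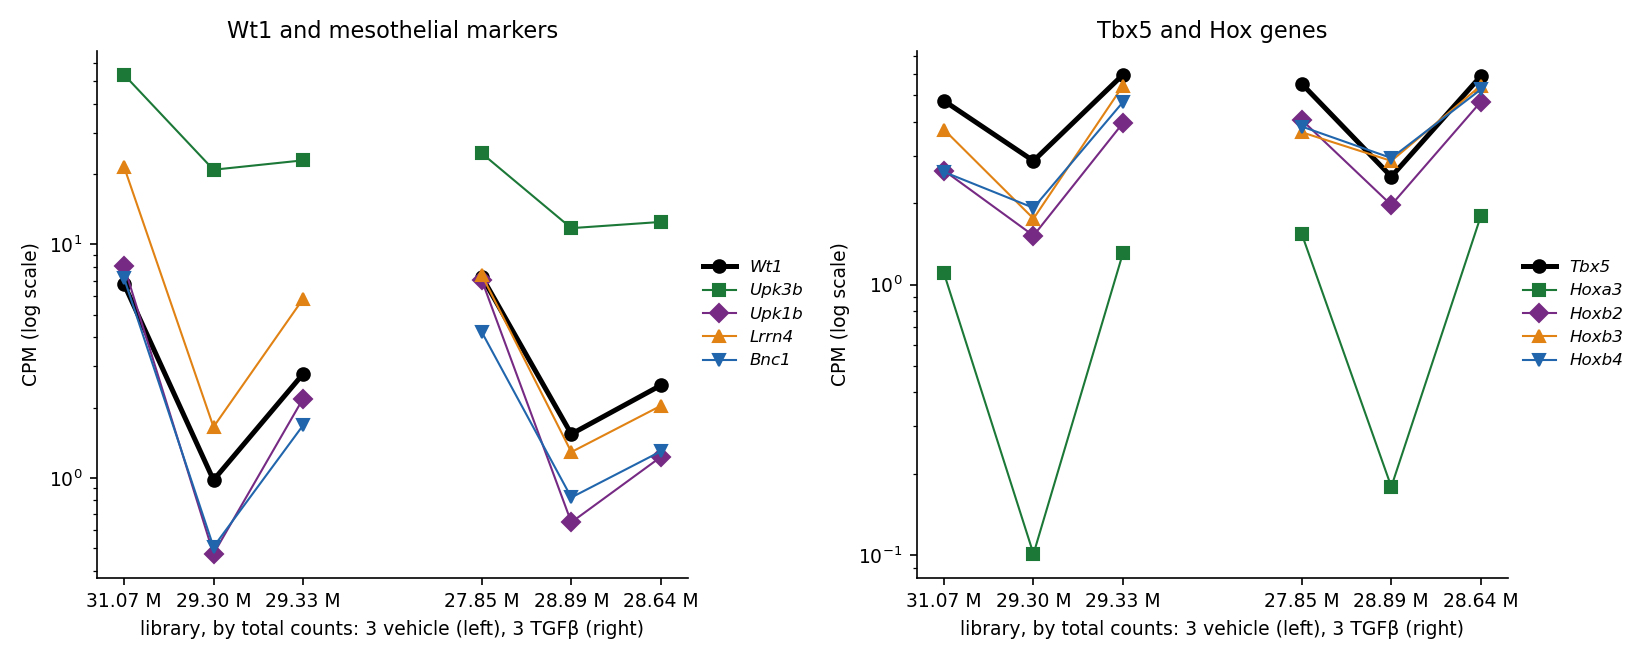
Level in CPM (log scale) of *Wt1* with 4 mesothelial markers (left) and of *Tbx5* with 4 Hox genes (right) in the 3 vehicle and 3 TGFβ libraries, named by total counts (M on the axis). Lines join the points of one gene within a group, and libraries have no order. *Wt1* and the markers are highest in the vehicle library of 31072338 counts and the TGFβ library of 27851677, and *Tbx5* and the Hox genes lowest in those of 29296570 and 28894151.

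*Tbx5* had an order of its own, lowest in the vehicle library of 29296570 counts and the TGFβ library of 28894151 and highest in those of 29331999 and 28641986. The same order was found for 4 of 10 tested Hox genes (*Hoxa3*, *Hoxb2*, *Hoxb3* and *Hoxb4*) and for 3 of 8 tested T-box relatives (*Tbx3*, *Tbx4* and *Tbx15*), beside 4.90% of all tested genes. It was also found for 2 of 5 pericyte markers (*Cspg4* and *Rgs5*), for *Mef2a* and *Mef2d* among 10 dimer partners and cofactors, and for *Gata2*, *Nppa*, *Dpt* and *Flt1*. With a spread of at least 2-fold in each group as well, 2 of 10 Hox genes, 0 of 8 T-box relatives and 0 of 5 pericyte markers shared it, beside 0.188% of all tested genes. *Nppa*, a cardiomyocyte marker with 6 to 33 counts, shared it with that spread too. *Hoxa3* went from 3 counts in the lowest vehicle library to 39 in the highest. No other member of the set shared the order of *Tbx5*. None of the 10 tested Hox genes passed the threshold with TGFβ in edgeR, DESeq2 or limma-voom (0 at an unadjusted edgeR p under 0.05), beside 40.7% of all tested genes. Standard errors of their log2 fold changes ran from 0.19 (*Hoxd8*) to 0.94 (*Hoxa5*), so the lack of a call does not show that they were unchanged. These orders come from 3 libraries a group and are a description.

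A ratio of counts within a library does not depend on how libraries are scaled. *Meox1* over *Meox2* was 1.52, 1.19 and 1.49 with vehicle and 12.9, 11.4 and 20.5 with TGFβ. With counts divided by exon length, *Meox1* made up 59.6 ± 3.29% of the pair with vehicle and 93.7 ± 1.68% with TGFβ (SD, n = 3). The log2 ratio was higher by 3.37 with TGFβ. *Scx* over *Tcf21* went from 0.0039 to 0.011 with vehicle to 0.055 to 0.071 with TGFβ, a difference of 3.22 on the log2 scale. Neither ratio overlapped between the groups. The two-sided exact permutation test gave p = 0.1 each, the smallest possible, and 0.2 after Benjamini-Hochberg adjustment over the 4 ratios. Each of these factors already separated the groups, *Meox1* and *Scx* upward and *Meox2* and *Tcf21* downward, so both ratios had to separate. These p-values therefore add nothing to the calls of the single factors. The other ratios overlapped between the groups: *Gata4* over *Gata6* was 1.20 to 1.53 with vehicle and 1.16 to 1.35 with TGFβ (exact p = 0.5), and *Tbx5* over *Tbx20* differed by 0.52 on the log2 scale (exact p = 0.4).

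**Figure D5:**
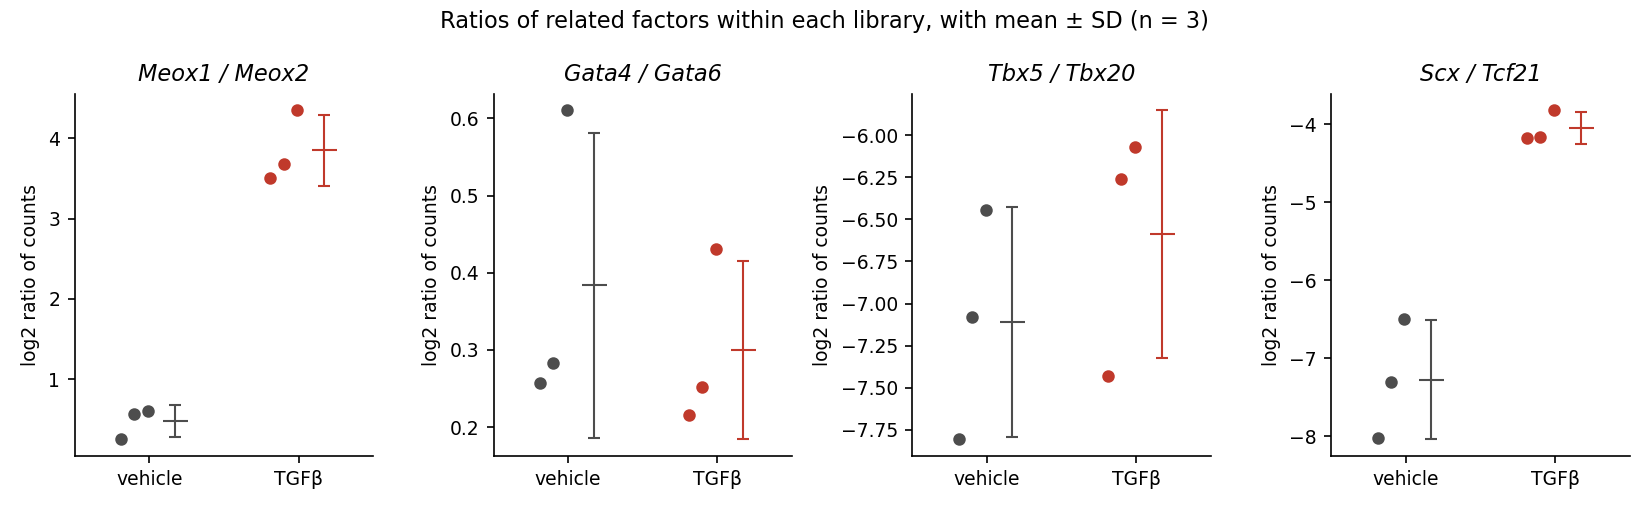
Log2 ratio of counts of related factors within each library (points; vehicle grey, TGFβ red), with the mean and SD of 3 libraries; each panel has its own axis, which need not include 0. *Meox1* over *Meox2* and *Scx* over *Tcf21* are separated between the groups, by 3.37 and 3.22, and the other ratios overlap.

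The companion genes give the surroundings of the 10 factors. Among the dimer partners and cofactors, which include the E proteins that pair with Tcf21, Hand2 and Scx, *Tcf12* passed the threshold as higher (log2 fold change 0.13), and *Tcf4* (-0.23) and *Mef2c* (-0.48) as lower. The call of *Tcf12* was lost under 10 of 14 alternatives, DESeq2 among them. *Basp1*, a cofactor of Wt1, had the highest level of that list at 70.4 CPM per kb with vehicle.

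Of 3 other bHLH genes of these families that were tested, 2 fell, beside 20.1% of all tested genes. They were *Msc* (musculin, a close relative of *Tcf21*), with 232, 332 and 252 counts with vehicle and 96, 114 and 91 with TGFβ (log2 fold change -1.32; edgeR adjusted p = 0.00094), and *Tcf15* (paraxis), with 12 to 15 and 5 to 7 counts (-1.09; edgeR adjusted p = 0.0207). The call of *Tcf15* rests on few counts and was lost, or the gene not tested, under 8 of 14 alternatives, among them DESeq2 and leaving out any of 4 libraries. Of 8 T-box relatives tested, 1 passed, beside 40.7% of all tested genes. The 1 that passed was *Tbx18*, from 54.6 ± 4.47 to 79.9 ± 14.1 CPM (log2 fold change 0.55; edgeR adjusted p = 0.00988), opposite in sign to *Tbx20*. None of the 3 tested GATA relatives passed in edgeR, DESeq2 or limma-voom, and 0 had an unadjusted edgeR p under 0.05. *Smarcd3* rose among 3 tested cardiac progenitor factors (log2 fold change 0.51; edgeR adjusted p = 0.000121).

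Genes of the tendon and valve programme, in which *Scx* acts, were mixed. Of 8 tested, 4 rose and 2 fell, beside 20.5% and 20.1% of all tested genes, with a median log2 fold change of 0.72. *Thbs4* (thrombospondin of tendon; 22 to 27 counts with vehicle and 98 to 198 with TGFβ) rose by 2.63 on the log2 scale, the fibrillar collagen gene *Col11a1* by 1.49, *Mkx* (the tendon homeobox factor mohawk) by 1.31 and *Tnc* (tenascin C) by 0.92. *Col14a1*, the highest of the list per kb with vehicle, fell by 0.81 and *Fmod* (fibromodulin) fell by 0.73. *Tnmd*, the late tendon marker tenomodulin, had 13 to 23 counts and did not pass (log2 fold change 0.51; edgeR adjusted p = 0.164).

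General markers of fibroblasts were read as well. Of 10 tested, 8 fell, beside 20.1% of all tested genes. Among them were *Pdgfra*, the receptor that marks cardiac fibroblasts, from 665 ± 55.3 to 257 ± 18.3 CPM (log2 fold change -1.37; edgeR adjusted p = 1.77e-05) and *Dcn* (decorin), which fell by 0.52 on the log2 scale. *Col1a1* (0.23; edgeR adjusted p = 0.055) and *Col1a2* (0.13; edgeR adjusted p = 0.196) did not pass.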

How the data were processed

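Total RNA of the 6 cultures was made into stranded, polyA-selected libraries and read as single-end fragments of 75 bases. The authors deposited 1 table of raw counts per gene for all 6 libraries, and the submitters' processing notes name mm10 and DESeq2. The aligner, the counter, the annotation and the use of strand are not given in the sources used here. The deposited table also holds the authors' DESeq2 values (a mean normalised signal, a log2 fold change, its standard error, a test statistic, a p-value and an adjusted p-value), which were not used. No other column of per-sample values was found (0 columns). Columns were mapped to groups by name and carry no replicate number.

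Genes were filtered with filterByExpr on the group (14334 of 25140 kept), and TGFβ was compared with vehicle by the quasi-likelihood test of edgeR 4.0.16 (R 4.3.3) after TMM scaling, with Benjamini-Hochberg adjustment over all genes kept. CPM come from the cpm function of edgeR with TMM-scaled library sizes. CPM per kb divide these by the length of all annotated exons (GENCODE M21, GRCm38), which matched 25086 gene identifiers. Ratios of counts had 0.5 added to each count. Single values were compared with two-sided exact permutation tests. On simulated counts of the 25140 genes with 200 changed, edgeR recovered 92% of the changed genes and 3.16% of its calls were false. The changed genes were well counted, changed by more than *Hand2* did, and were far fewer than those called in the data. All genes were given the same spread. These rates therefore do not carry over to factors with low counts, wide spread or small changes. Counting error was smaller than the spread between libraries for 9 of the 10 factors in both groups, and for *Tcf21* with vehicle only.

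The 10 factors, the gene lists and the tests were chosen with earlier results of these data known. Named were all 10 factors, the genes of each companion list that passed the threshold with a change of at least 1 on the log2 scale (at most 4 a direction), the highest of each list per kb with vehicle, defining markers, and genes overlapping a factor. *Tcf12*, *Tcf4*, *Mef2c*, *Tnc*, *Fmod*, *Tnmd*, *Hand1*, *Nkx2-5*, *Isl1* and the genes named for sharing the library order of *Wt1* or *Tbx5* were named after their values were seen. So were *Eng*, *Lyz2*, *Aldh1a2* and *Col1a2*. A result of the partner and cofactor list is not reported here. Alternatives were DESeq2 size factors or upper quartile scaling in edgeR, DESeq2 1.42.0, limma-voom (limma 3.58.1), other filters and thresholds, each library left out in turn, other lengths, and 2 marker covariates added after seeing the data.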

Additional observations from a re-analysis of the deposited data

How the results depend on the processing

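The calls of *Tcf21*, *Tbx20*, *Hand2*, *Meox1*, *Meox2* and *Scx* held, in the same direction, under all 14 alternatives fitted for each (other scalings, filters and tools, single libraries left out, and the marker covariates). At an adjusted p of 0.01, 3595 genes passed (1855 higher, 1740 lower) and *Hand2* was lost. With an absolute log2 fold change beyond 1 as well as the usual threshold, 971 genes passed (346 higher, 625 lower) and 2 of the lower factors remained, *Tcf21* and *Meox2*. Leaving out single libraries gave 4489 to 5481 genes and 6 to 7 factors. *Gata4* was the added factor, without the vehicle library of 29331999 counts (-0.23).

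Of the factors that did not pass, *Wt1*, *Tbx5* and *Gata6* had no stable sign. *Gata4* stayed negative under all alternatives (log2 fold change -0.24 to -0.098). With single libraries left out the log2 fold change of *Wt1* was -0.80 to 1.00 (-0.80 when TGFβ 27851677 was dropped, -0.35 and -0.05 when the vehicle library of 29296570 or 29331999 counts was), that of *Tbx5* -0.21 to 0.33 (-0.21 when vehicle 29296570 was dropped, -0.11 and -0.19 when TGFβ 27851677 or 28641986 was) and that of *Gata6* -0.13 to 0.034 (the latter when vehicle 31072338 was dropped). *Tbx5* was at -0.0033 in limma-voom, *Gata6* at 0.0055 with the mesothelial covariate and *Wt1* at -0.35 with the endothelial covariate. The log2 ratio of *Gata4* over *Gata6* was -0.15 to 0.029, the latter when vehicle 29296570 was dropped. The cause was not tested. With the longest transcript as length 5 factors kept their place in the order of levels, and the vehicle levels became 170 CPM per kb for *Tcf21*, 66.5 for *Tbx20*, 31.3 for *Gata4*, 21.6 for *Gata6* and 1.13 for *Wt1*. Of the counts of called genes in companion lists, 19 moved and 93 did not over all alternatives and thresholds. With single libraries left out, *Gata3*, *Hopx*, *Hoxd9*, *Tcf24* and *Zfpm1* passed in places and *Tcf12* and *Tcf15* were lost in places. *Zfpm1* passed under 6 of 14 alternatives, among them DESeq2, no filter on low counts and each marker covariate. No paired analysis was possible because the columns of the table carry no replicate numbers. *Wt1* and *Tbx5* each take the same order over the columns of both groups, but column order is no label and was not used to pair libraries, so the intervals of *Wt1*, *Tbx5* and *Gata4* come from a fit without a block. Low counts limit *Wt1*, *Tbx5* and *Scx*, whose lowest libraries had 29, 70 and 34 counts.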
